A study of Mus musculus with 12 samples.

Results

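Polycomb repressive complex 2 (PRC2) was described through 8 mouse genes chosen by name: Ezh2, Ezh1, Suz12, Eed, Jarid2, Mtf2, Phf19 and Aebp2. Each symbol had 1 entry among the 19708 entries of the normalized table, and all 8 passed the filter on low levels that left 12704 entries for testing. The libraries are 3′-end poly(A) RNA sequencing of C57BL/6 mouse cells. They cover Mettl3-knockout (KO) and wild-type (WT) embryonic stem cells (ESCs), and Mettl3-KO and WT embryoid bodies (EBs), each at 0, 4 and 8 h after actinomycin, which stops transcription. ESC cultures received LIF and the 2i pair of kinase inhibitors without serum, and EBs are suspension aggregates of differentiating cells made from ESCs and grown in serum medium. The labels give no Mettl3 allele, no number of KO lines and no day of culture for each EB library. Every one of the 12 groups had 1 library, so the 3 times of a condition were read together and each group has no replicate of its own.

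PRC2 places methyl groups on lysine 27 of histone H3, a mark of silent developmental genes in pluripotent cells. Its core joins a methyltransferase, EZH2 or EZH1, to SUZ12, which holds the complex together, and EED, which binds the finished mark and stimulates the enzyme. The core comes in alternative forms, one carrying JARID2 and AEBP2 and another carrying a Polycomb-like protein such as MTF2 or PHF19. METTL3 is the catalytic subunit of the enzyme that writes N6-methyladenosine (m6A) on mRNA, most often at an adenosine inside a GGACT-like sequence, and m6A is known to shorten the life of many transcripts.

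Because the knockout removes that writer, a GGACT with 10 bases on either side is shown for each gene that has a match. It is the match nearest to the stop codon in the GENCODE M21 transcript, among those whose shown bases lie within 1 exon. Sequences are transcript-strand reference sequence on GRCm38, and capitals mark GGACT.
Ezh2 (coding, chr6:47545733-47545757, minus strand): agagaagcagGGACTgaaactgggg
Ezh1 (coding, chr11:101195559-101195583, minus strand): cagagcactgGGACTgtaaggtggt
Eed (3′ untranslated, chr7:89954754-89954778, minus strand): cttcctgctcGGACTttactgcttt
Jarid2 (coding, chr13:44913684-44913708, plus strand): aaggtccacaGGACTgtacagcaga
Aebp2 (3′ untranslated, chr6:140651447-140651471, plus strand): tcccttttcaGGACTagggtctctc
Mtf2 (3′ untranslated, chr5:108106941-108106965, plus strand): cctgactgtaGGACTgaacgtaatg
Phf19 (coding, chr2:34905495-34905519, minus strand): aactcgattgGGACTcgccccatcg
Jarid2 had 5 matches, all in its coding sequence. Phf19 and Aebp2 had 3 each, Ezh2, Ezh1 and Mtf2 had 2 each, Eed had 1 and Suz12 had 0. The letters were searched on the transcript strand only. Over 12260 genes the median was 3 matches per transcript, with quartiles of 2 and 5, and 92.5% had at least 1. By count, Eed and Suz12 thus lie below the lower quartile, and the other 6 between the quartiles or on one. Counts grow with transcript length, and the Jarid2 transcript has 5019 bases, beside a median of 3032. Per kilobase the 8 genes had 0 to 0.996 matches, Jarid2 being highest, all below the median of 1.06. The quartiles per kilobase were 0.646 and 1.52, and Ezh1, Suz12, Eed and Mtf2 lay below the lower quartile. A match is a string of letters in the reference and not a measured m6A site.

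Depth was low and unequal. Read equivalents, inferred from the step size of the deposited values, ran from 208872 to 666799 per library, and column totals of the deposited levels ran from 3.67e+06 to 1.11e+07. The WT EB library of 8 h is the shallowest and stands apart, since the WT EB totals shrink with time. Of 1425 genes expected to be off here, such as olfactory receptors, 26.7 to 36.2% had signal in EB libraries and 6.81 to 9.61% in ESC libraries. The 99th percentile of their levels was 123 in the WT EB library of 8 h. There, Ezh2, Suz12, Jarid2, Phf19 and Aebp2 lay below that value. Mettl3 itself was at 98.1, 65.4 and 41.8 at 0, 4 and 8 h in KO ESCs, against 251, 64.8 and 113 in WT ESCs. In KO EBs it was at 16.8, 40.7 and 83.9, against 175, 86.0 and 77.4 in WT EBs. The KO value was thus lower at 0 h in both cell types but not at every later time. At 0 h the 95% counting intervals overlapped in ESCs, 26.1 to 254 in KO and 125 to 450 in WT. In EBs they did not, at 1.34 to 69.5 and 90.4 to 307. Both KO values at 0 h lay below the 99th percentile of the genes expected to be off, 112 in ESCs and 82.0 in EBs. The labels do not say whether the sequenced 3′ end was deleted.

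Levels below are the deposited normalized levels at 0, 4 and 8 h. Brackets hold 95% intervals for counting error only, and the ratios at 0 h compare single untreated libraries with no test. Differences over the 3 times are log2 differences of the mean over 0, 4 and 8 h with their standard error (SE) from limma, whose error term is how far libraries of a condition lie from a straight line over time. Such a mean mixes the untreated level with what was left after actinomycin. A gene was called at a Benjamini-Hochberg adjusted p under 0.05 over all 12704 entries.

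Ezh2 (NM_007971, chromosome 6, 47530274 to 47595270 on GRCm38) encodes the main PRC2 methyltransferase of dividing cells. Its level was 698, 527 and 319.7 in KO ESCs at 0, 4 and 8 h, against 1435, 753 and 384 in WT ESCs. It was 423, 449 and 98.7 in KO EBs, compared with 985, 412 and 111 in WT EBs. The untreated KO library was the lower one in both cell types. At 0 h the KO level was 0.486 of WT in ESCs [0.299 to 0.772] and 0.43 of WT in EBs [0.283 to 0.646]. That gap was smaller at 4 and 8 h in the levels as deposited, and in EBs at 4 h the KO level was 1.09 times WT [0.651 to 1.86]. With ribosomal protein levels set equal the EB ratio at 8 h was 0.397, so the narrowing at 8 h depends on the scale. Over the 3 times the KO difference did not pass the test, at -0.60 ± 0.33 in ESCs (SE; limma adjusted p 0.264) and -0.41 ± 0.33 in EBs (limma adjusted p 0.575).

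Ezh1 (NM_007970, chromosome 11, 101191115 to 101226463) encodes the related methyltransferase, known for its expression in cells that divide little. It stood at 299.7, 153 and 78.9 in KO ESCs, against 292, 78.7 and 331 in WT ESCs. In EBs the levels were 194, 34.5 and 68.4 in KO, against 277, 191 and 164 in WT. These values rest on 2.94 to 18.8 read equivalents per library, and in WT ESCs the share of the 0 h level present at 4 h, 26.9% [5.2 to 95.9], and at 8 h, 113% [44.5 to 280.3], had overlapping intervals. In EBs the KO level was below WT at each of the 3 times, with a difference of -1.29 ± 0.55 (SE) whose limma adjusted p of 0.19 missed the threshold. In ESCs the difference was -0.34 ± 0.55 (SE; limma adjusted p 0.742), and it ran from -0.97 to 0.90 when single libraries were left out.

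Suz12 (NM_199196, chromosome 11, 79993106 to 80034123) encodes the scaffold subunit. Its level was 873, 778 and 385 in KO ESCs, against 1037, 634 and 338 in WT ESCs. It was 537, 588 and 343 in KO EBs, compared with 582, 355 and 111 in WT EBs. KO and WT EBs were close before actinomycin, at a ratio of 0.922 [0.596 to 1.44], and apart at 8 h, at 3.09 [1.28 to 8.84]. That ratio at 8 h was 1.82, 2.05 and 1.38 with equal column totals, median-ratio scaling and equal ribosomal protein levels. The WT EB level at 8 h lay below the 99th percentile of the genes expected to be off, 123. The mean difference in EBs was 0.72 ± 0.29 (SE; limma adjusted p 0.163) and in ESCs 0.08 ± 0.29 (limma adjusted p 0.904), and neither passed.

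Eed (NM_021876, chromosome 7, 89954654 to 89980976) encodes the subunit that recognizes methylated lysine 27. Levels were 1918, 807 and 549.9 in KO ESCs, against 2714, 1688 and 663 in WT ESCs. In KO EBs they were 1121, 561 and 247, against 1370.4, 455 and 143 in WT EBs. Every one of the 4 conditions kept the order 0 h over 4 h over 8 h. In ESCs the untreated KO level was 0.707 of WT [0.523 to 0.95]. The difference over the 3 times was -0.61 ± 0.25 in ESCs (SE; limma adjusted p 0.121) and 0.25 ± 0.25 in EBs (limma adjusted p 0.665), and neither was called.

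Jarid2 (NM_021878, chromosome 13, 44730774 to 44921643) encodes a DNA-binding accessory subunit that helps to bring PRC2 to its targets. In ESCs its level was 1629.9, 889 and 1279 in KO, against 1628, 1457 and 667 in WT. In EBs its level was 1636, 1478 and 1154 in KO, against 1132, 459 and 84.8 in WT. All 3 KO EB libraries lay above all 3 WT EB libraries, while the ESC libraries of the genotypes overlapped. The KO EB excess was 1.45-fold at 0 h [1.09 to 1.93], 3.22-fold at 4 h [2.14 to 5.01] and 13.6-fold at 8 h [5.56 to 44.0]. It thus widened after actinomycin, and the WT EB value at 8 h rests on 4.82 read equivalents. That value lay below the 99th percentile of the genes expected to be off, 123, so the size of the excess at 8 h is uncertain. In ESCs the ratio was 1.00 at 0 h [0.704 to 1.42], 0.61 at 4 h [0.373 to 0.977] and 1.92 at 8 h [1.12 to 3.4], with no single direction.

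Aebp2 (NM_001005605, chromosome 6, 140622454 to 140678472) encodes the zinc-finger partner of JARID2 in the same form of the complex. It was at 499, 302 and 282 in KO ESCs, against 211, 176 and 157 in WT ESCs, so that the ESC libraries of the genotypes did not overlap. In EBs the levels were 575, 404 and 188 in KO, against 299, 185 and 87.9 in WT. KO was the higher genotype in 6 of 6 pairs of libraries, by 1.72- to 2.36-fold in ESCs and by 1.92- to 2.19-fold in EBs. At 0 h the intervals were 1.03 to 5.85 in ESCs and 1.14 to 3.38 in EBs. In ESCs they included 1 at 4 h [0.577 to 5.35] and at 8 h [0.561 to 6.83]. In EBs the interval was clear of 1 at 4 h [1.11 to 4.67] but not at 8 h [0.745 to 7.46]. The WT values at 8 h rest on 4.80 read equivalents in ESCs and 5.00 in EBs. The mean differences of 0.92 ± 0.32 in ESCs (SE; limma adjusted p 0.0704) and 1.01 ± 0.32 in EBs (limma adjusted p 0.0643) did not reach the threshold, and the interaction between them was 0.09 ± 0.46 (SE; limma adjusted p 0.955). With entries under a mean of 20 ppm left out, the EB difference passed, at an adjusted p of 0.0469. With ribosomal protein levels set equal, the EB ratio at 8 h was 0.951, below 1.

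Mtf2 (NM_013827, chromosome 5, 108065660 to 108109219) encodes the Polycomb-like protein that is abundant in ESCs and binds unmethylated CpG-rich DNA. Levels were 953, 1033 and 664 in KO ESCs, against 1296, 805 and 501 in WT ESCs. They were 527, 343 and 363 in KO EBs, compared with 659, 211 and 137 in WT EBs. The KO libraries were the lower ones at 0 h and the higher ones at 4 and 8 h in both cell types, and among these 6 ratios only that of EBs at 8 h, 2.66 [1.18 to 6.79], had an interval clear of 1 in the levels as deposited. It was 1.56, 1.76 and 1.18 with equal column totals, median-ratio scaling and equal ribosomal protein levels. The mean difference was 0.10 ± 0.28 in ESCs (SE; limma adjusted p 0.859) and 0.57 ± 0.28 in EBs (limma adjusted p 0.276).

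Phf19 (NM_028716, chromosome 2, 34893752 to 34914353), which encodes another Polycomb-like protein, was barely detected. Its level was 48.3, 86.4 and 66.5 in KO ESCs, against 107, 67.3 and 60.2 in WT ESCs, and 41.2, 71.2 and 47.7 in KO EBs, compared with 211, 64.4 and 34.5 in WT EBs. These levels equal 1.84 to 14.4 read equivalents, and in 9 of 12 libraries they lay below the 99th percentile of the genes expected to be off. The untreated WT EB library was the highest, and the KO level there was 0.195 of WT [0.0457 to 0.625]. The means over the 3 times, -0.19 ± 0.51 in ESCs (SE; limma adjusted p 0.859) and -0.54 ± 0.51 in EBs (limma adjusted p 0.652), had 95% intervals of -1.28 to 0.90 in ESCs and -1.63 to 0.55 in EBs.

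**Figure D1:**
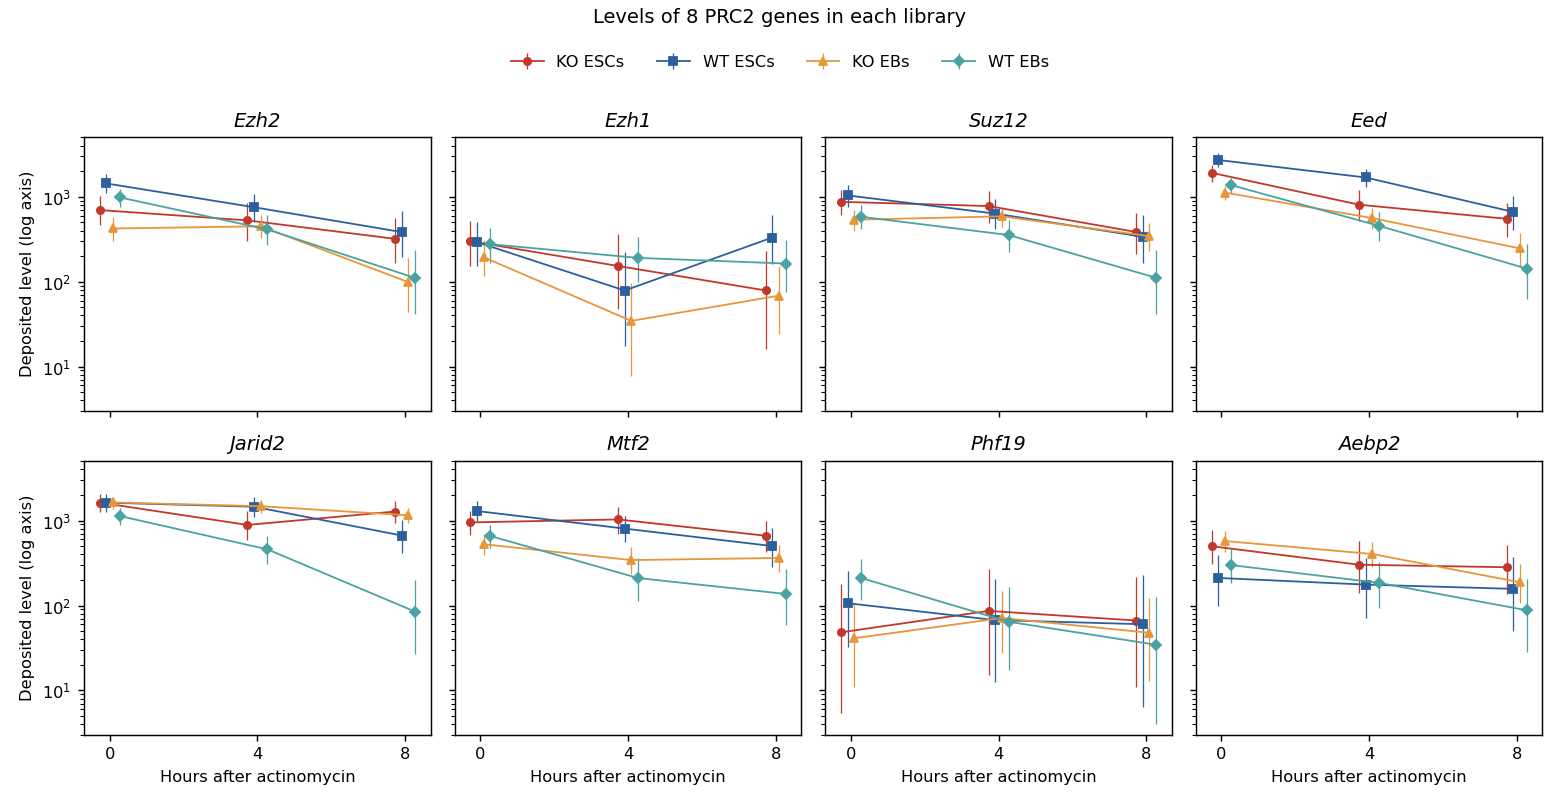
Deposited level of each of the 8 PRC2 genes (log axis) in each of the 12 libraries, against hours after actinomycin, with 95% counting intervals as bars; points of 1 time are set apart sideways for reading. Jarid2 in WT EBs drops to 84.8 at 8 h while KO EBs stay at 1154, Aebp2 is higher in KO at every time, and Phf19 stays between 34.5 and 211.

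Taking the KO comparison over the genes, 0 of 8 were called in ESCs, where 14.1% of all entries were called in either direction and 2 of the 8, Eed and Aebp2, had an unadjusted p under 0.05. The median difference of the 8 was -0.06, beside 0.18 over all entries. In EBs 1 of 8 was called higher, where 7.66% of all entries were, and the median was 0.41 beside 0.09 over all entries. That gene was Jarid2, at 1.95 ± 0.28 (SE; limma adjusted p 0.000395). It stayed called in all 12 fits that left out 1 library, at 1.60 to 2.12, but not without both EB libraries of 8 h (1.67, adjusted p 0.159). Each condition has its own line, so fits without an ESC library cannot move this EB difference and change only its error. In EBs, 4 of the 8 had an unadjusted p under 0.05: Ezh1, Suz12, Jarid2 and Aebp2. The share of all entries at an unadjusted p under 0.05 is not given here, so the unadjusted counts cannot be compared with it.

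**Figure D2:**
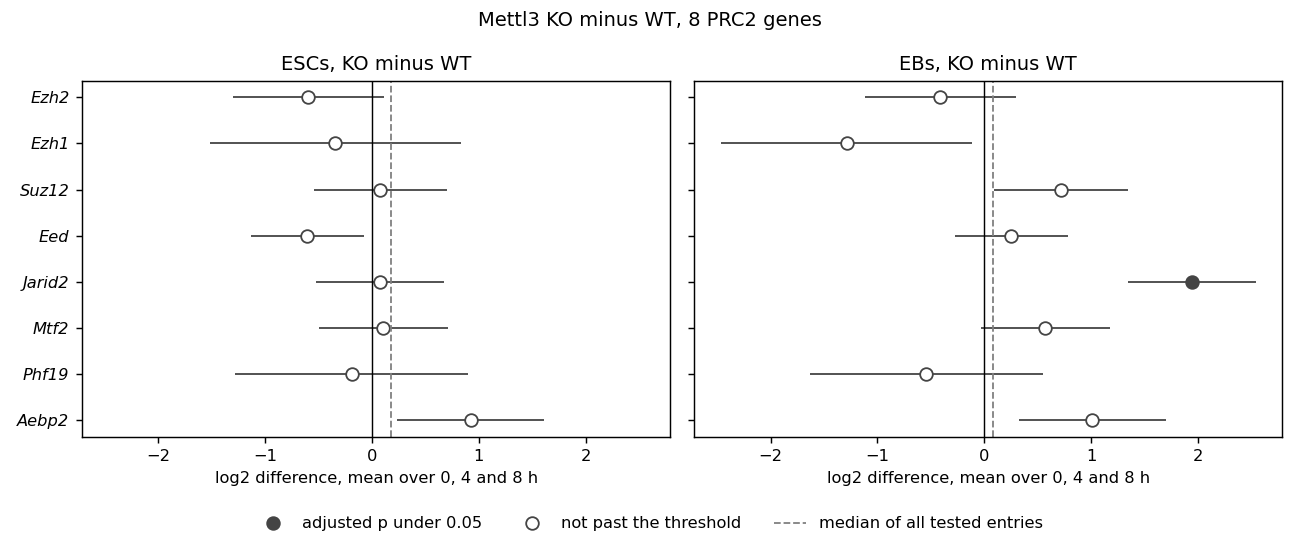
KO minus WT log2 difference of the mean over 0, 4 and 8 h for the 8 PRC2 genes in ESCs (left) and EBs (right), with 95% limma intervals; filled points passed an adjusted p of 0.05, and the dashed line is the median of all tested entries, 0.18 in ESCs and 0.09 in EBs. Jarid2 in EBs, at 1.95, is the only filled point.

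Whether the KO difference itself changed between EBs and ESCs was tested as an interaction. Jarid2 was called, with a KO difference larger in EBs than in ESCs by 1.87 ± 0.40 (SE; limma adjusted p 0.0176), where 1.50% of all entries were called in that direction. For the other 7 the interaction was not called. Eed came next at 0.86 ± 0.35 (limma adjusted p 0.233), with KO above WT by 0.25 in EBs and below it by a log2 difference of -0.61 in ESCs. The Jarid2 call was lost in 6 of the 12 fits that left out 1 library, namely each KO EB library, the KO ESC library of 4 h and the WT EB libraries of 0 and 8 h, at 1.52 to 1.94 with adjusted p of 0.0524 to 0.170. It was also lost without a variance trend (adjusted p 0.164), with additive time terms (0.255) and without both EB libraries of 8 h (1.59, adjusted p 0.482).

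The genotypes of EBs also differed in their endoderm markers. The 12 visceral and definitive endoderm genes summed to a level of 389 to 610.4 in KO EBs, with 10 to 12 of them above 0, against 5534 to 9258 in WT EBs, with 11 to 12 above 0. Sox17 and Foxa2 in KO EBs and Foxa2 in WT EBs were listed at 0, each at 8 h. The 8 parietal endoderm genes summed to 1838 to 2367 in KO EBs, compared with 17746 to 24119.5 in WT EBs. The 12 pluripotency genes were all above 0 in every EB library and summed to 29493 to 39517 in KO EBs, compared with 10283 to 40727 in WT EBs. Before actinomycin their sums were close, at 39517 in KO EBs and 40727 in WT EBs. The lower WT EB sums, 23192 at 4 h and 10283 at 8 h, came after actinomycin, the last in the shallowest library. In ESCs that pluripotency sum was 50078 to 59380.3 in KO and 79694 to 94649 in WT. The part of these differences in the Jarid2 result was not tested. In bulk RNA, fewer cells of a type and less RNA per cell cannot be told apart.

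The EB and ESC comparison asks which PRC2 transcripts were lower in EBs than in ESCs. EBs were in serum medium and ESCs in LIF and 2i without serum, so differentiation and medium cannot be told apart. In WT, 5 of 8 were called lower in EBs than in ESCs, where 29.1% of all entries were called lower. These 5 were Jarid2 at -1.68 ± 0.28, Eed at -1.67 ± 0.25, Mtf2 at -1.56 ± 0.28, Suz12 at -1.06 ± 0.29 and Ezh2 at -1.04 ± 0.33 (log2, SE; limma adjusted p 0.00037, 0.000141, 0.0007, 0.0114 and 0.0257 in that order). The median of the 8 was -1.05, beside -0.50 over all entries. The remaining 3 were not called, with Ezh1 at 0.04 ± 0.55, Phf19 at 0.07 ± 0.51 and Aebp2 at -0.08 ± 0.32 (SE). With equal column totals, median-ratio scaling and equal ribosomal protein levels, Ezh1 was at 0.91, 0.70 and 0.91, Phf19 at 0.87, 0.67 and 0.86 and Aebp2 at 0.79, 0.57 and 0.78, still not called. At 0 h, before actinomycin, WT EBs had, in the levels as deposited, 0.505 of the WT ESC level of Eed [0.381 to 0.668], 0.509 of Mtf2 [0.336 to 0.766], 0.561 of Suz12 [0.357 to 0.879], 0.686 of Ezh2 [0.479 to 0.984] and 0.695 of Jarid2 [0.497 to 0.974]. The median entry was lower at 0 h by a log2 difference of -0.29. After rescaling, Eed kept an interval below 1 under all 3 scalings, with upper limits of 0.886, 0.864 and 0.773 in the order above, and Mtf2 under all but equal column totals (1.02, 0.991 and 0.887). The upper limits of Suz12, Ezh2 and Jarid2 lay between 1.02 and 1.31 under the 3 rescalings.

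The WT call of Eed held in all 12 fits without 1 library and in all 10 other alternatives. Fits without a KO library cannot move a WT difference and change only its error. Mtf2 lost it with equal column totals (-0.67, adjusted p 0.117) and with ribosomal protein levels set equal (-0.68, adjusted p 0.157), and Jarid2 with equal column totals (-0.80, adjusted p 0.053). Ezh2 and Suz12 lost it under all 3 rescalings, where Ezh2 moved to between -0.37 and -0.15 and Suz12 to between -0.40 and -0.18. They also lost it when the 0 or 8 h library of WT EBs or of WT ESCs was left out, and Ezh2 when the WT ESC library of 4 h was, at -1.12 to -0.76 in these fits. Ezh2 also lost it without a variance trend (adjusted p 0.079) and with additive time terms (0.0699), and without both EB libraries of 8 h Ezh2 (0.211) and Suz12 (0.287) both did. The rescalings shift the median of all entries as well, to 0.34, 0.13 and 0.33 for equal totals, median ratio and ribosomal protein levels, and the median of the 8 genes to -0.17, -0.38 and -0.17. The share of all entries called lower was then 4.78, 7.88 and 4.75%.

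In KO, 2 of 8 were called lower in EBs than in ESCs, where 23.2% of all entries were called lower. They were Mtf2 at -1.09 ± 0.28 (SE; limma adjusted p 0.0143) and Eed at -0.81 ± 0.25 (limma adjusted p 0.0292). The median of the 8 was -0.61, beside -0.61 over all entries. Jarid2 was at 0.20 ± 0.28 (SE; limma adjusted p 0.632), with an untreated KO EB level 1.00 times that of KO ESCs [0.746 to 1.36]. Ezh2 was at -0.85 ± 0.33 (limma adjusted p 0.0738; 0.0369, and so called, with entries under a mean of 20 ppm left out) and Suz12 at -0.42 ± 0.29 (limma adjusted p 0.309). Both KO calls were lost under all 3 rescalings, where Mtf2 was at -0.71 to -0.41 and Eed at -0.43 to -0.13, without a variance trend, with additive time terms and without both EB libraries of 8 h. Leaving out single libraries ended the Eed call in 5 of 12 fits, those without a KO EB library or without the KO ESC library of 0 or 8 h. It ended the Mtf2 call in 6 of 12, those without any 1 of the 6 KO libraries.

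**Figure D3:**
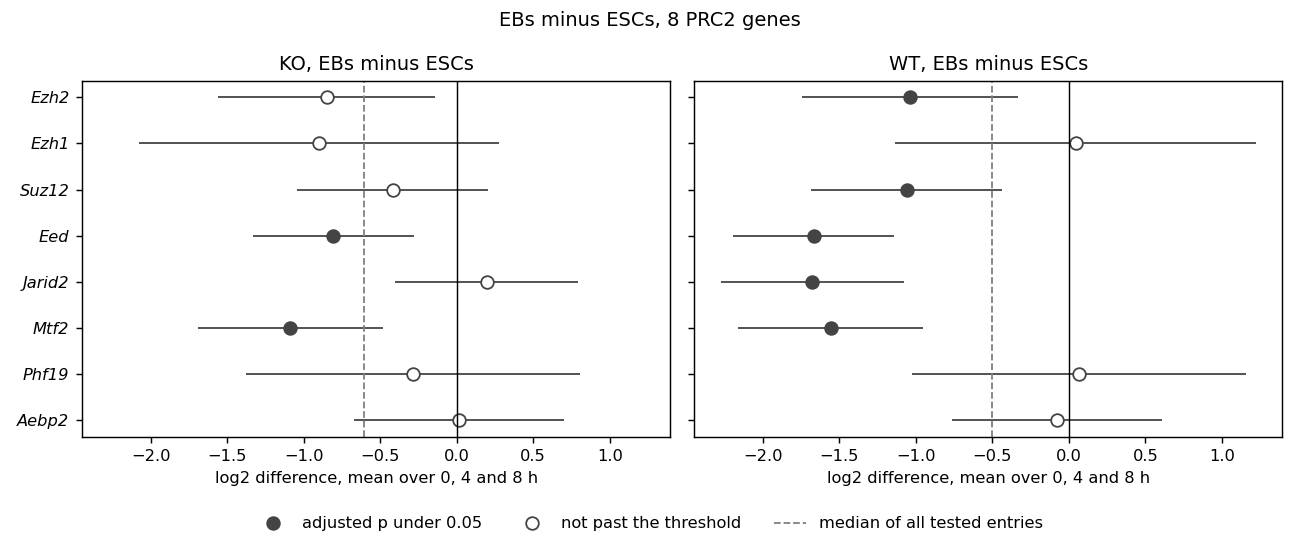
EB minus ESC log2 difference of the mean over 0, 4 and 8 h for the 8 PRC2 genes in KO (left) and WT (right), with 95% limma intervals; filled points passed an adjusted p of 0.05, and the dashed line is the median of all tested entries, -0.61 in KO and -0.50 in WT. Jarid2 sits at 0.20 in KO and at -1.68 in WT.

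At 8 h after actinomycin most of the 8 transcripts had less of their untreated level left than the median entry. The summed level of the 8 genes was 6919, 4576 and 3625 at 0, 4 and 8 h in KO ESCs, against 8721, 5660 and 3101 in WT ESCs. It was 5055, 3929 and 2510 in KO EBs, compared with 5514, 2331 and 872 in WT EBs. At 8 h the median member had 51.2% of its 0 h level left in KO ESCs, beside 93.3% for the median tested entry, and 39.8% in WT ESCs, beside 76.4%. It had 49.6% left in KO EBs, beside 83.0%, and 17.7% in WT EBs, beside 49.0%. In each of the 4 conditions 7 of 8 genes lay below the median of all entries at 8 h. The exception was Phf19 in both KO conditions and Ezh1 in both WT conditions. At 4 h the number below the median of all entries was 6 in KO ESCs, 6 in WT ESCs, 5 in KO EBs and 8 in WT EBs. The median member then had 68.1% left in KO ESCs, beside 96.7% for the median entry, and 62.2% in WT ESCs, beside 81.9%. It had 80.3% left in KO EBs, beside 90.4%, and 41.2% in WT EBs, beside 71.5%. Setting the libraries to another scale multiplies all entries alike, so it moves these percentages but not which genes lie below the median.

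Eed had the least or next to least left of the 8 in every condition, at 28.7% in KO ESCs [16.7 to 47.2], 24.4% in WT ESCs [14.4 to 39.3], 22.0% in KO EBs [13.0 to 35.5] and 10.4% in WT EBs [4.4 to 21.3] at 8 h. Its interval stayed below the median entry in all 4. Ezh2 had 45.8% left in KO ESCs [21.1 to 93.3], 26.8% in WT ESCs [13.0 to 50.4], 23.3% in KO EBs [9.58 to 50.03] and 11.3% in WT EBs [4.11 to 25.4]. In KO EBs 106% of Ezh2 was left at 4 h [67.2 to 168], an interval that allows some loss by then. With equal ribosomal protein levels that share was 94.7%. Jarid2 had 78.5% left in KO ESCs [52.8 to 116], 41.0% in WT ESCs [23.7 to 67.9], 70.5% in KO EBs [54.1 to 91.5] and 7.49% in WT EBs [2.3 to 18.5]. Among the 8 genes Jarid2 had the least left in WT EBs and the second most in KO EBs, after Phf19. The Phf19 share has an interval of 21.4 to 636%. The WT EB levels of Ezh2 and Jarid2 at 8 h lay below the 99th percentile of the genes expected to be off.

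**Figure D4:**
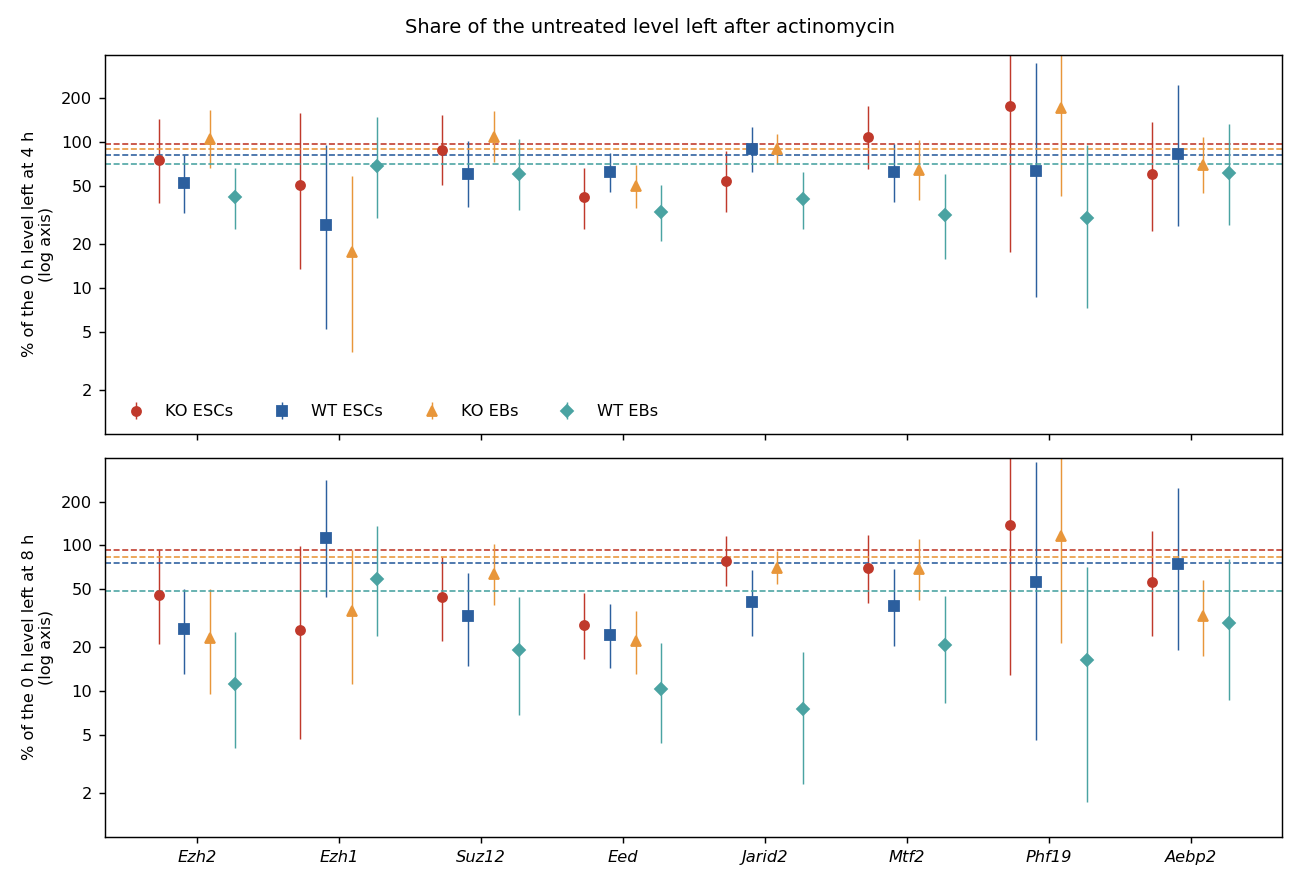
Share of the 0 h level left at 4 h (top) and 8 h (bottom) after actinomycin for each PRC2 gene (percent, log axis), with 95% counting intervals whose upper ends are clipped at the top of the panel; dashed lines are the median tested entry of each condition, at 8 h 93.3% in KO ESCs, 76.4% in WT ESCs, 83.0% in KO EBs and 49.0% in WT EBs. At 8 h the WT EB points of Jarid2, Eed and Ezh2 lie lowest, at 7.49, 10.4 and 11.3%.

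The change per hour over 0, 4 and 8 h was tested as a slope in each condition. In KO ESCs 0 of 8 were called, where 0.0315% of all entries were called in either direction, and 2 of the 8, Suz12 and Eed, had an unadjusted p under 0.05. In WT ESCs Eed was called falling, at a log2 slope of -0.25 ± 0.05 per hour (SE; limma adjusted p 0.0135), where 5.35% of all entries were called falling. There 5 of the 8 had an unadjusted p under 0.05. The Eed call was lost when the 0 or 8 h library of WT ESCs was left out, with median-ratio scaling (adjusted p 0.068) and without a variance trend (0.0906). In KO EBs 0 of 8 were called by limma, and 0% of all 12704 entries were, while 3 of the 8, Ezh2, Eed and Aebp2, had an unadjusted p under 0.05. For slopes too, the share of all entries at that unadjusted threshold is not given here.

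In WT EBs 6 of 8 were called falling, where 26.7% of all entries were. Their slopes per hour were -0.45 ± 0.06 for Jarid2, -0.40 ± 0.05 for Eed, -0.38 ± 0.07 for Ezh2, -0.29 ± 0.06 for Suz12, -0.27 ± 0.06 for Mtf2 and -0.21 ± 0.07 for Aebp2 (log2, SE; limma adjusted p 0.000306, 0.000306, 0.00193, 0.00454, 0.00487 and 0.0371 in that order). The median slope of the 8 was -0.29, beside -0.12 over all entries. Under each of the 3 rescalings 2 of the 6 stayed called, Jarid2 and Eed, and without the WT EB library of 8 h, or without both EB libraries of 8 h, 0 of 8 were called. Leaving out the WT EB library of 0 h also left 2 called, Jarid2 and Eed. The share of all entries whose slope was called under the rescalings is not given here. Without the WT EB library of 8 h the slopes were -0.32 for Jarid2, -0.39 for Eed, -0.31 for Ezh2, -0.18 for Suz12, -0.40 for Mtf2 and -0.17 for Aebp2, from libraries of 0 and 4 h, and 71 of all entries were called.

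The slopes of KO and WT were then compared. In ESCs 0 of 8 differed by limma, 0.0394% of all entries did in either direction, and 0 of the 8 had an unadjusted p under 0.05. In EBs Jarid2 had the higher slope in KO by 0.39 ± 0.09 per hour (log2, SE; limma adjusted p 0.0439), where 1.19% of all entries were called higher. Its slope was -0.06 ± 0.06 in KO EBs and -0.45 ± 0.06 in WT EBs. This call did not hold under any of the 3 rescalings (0.24 to 0.30, adjusted p 0.441 to 0.647), and it was lost in 11 of the 12 fits without 1 library, all but that without the WT EB library of 4 h, at 0.26 to 0.52. Mtf2 at 0.21 ± 0.09 (limma adjusted p 0.225) and Suz12 at 0.21 ± 0.09 (limma adjusted p 0.244) were the next, uncalled.

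Rescaling bears on the Jarid2 values in a measurable way. With equal column totals, median-ratio scaling and equal ribosomal protein levels, the share of Jarid2 left at 8 h was 79.9, 87.3 and 67.5% in KO EBs, compared with 16.9, 16.1 and 17.7% in WT EBs. The KO EB excess at 8 h was 8.00-, 9.03- and 6.07-fold under these scalings, and at 0 h it was 1.70-, 1.67- and 1.59-fold. The excess at 8 h therefore stayed larger than that at 0 h under all 3. For Eed the WT EB share was 23.6, 22.5 and 24.6%, against 24.9, 27.2 and 21.1% in KO EBs, so that the genotypes, 22.0% in KO and 10.4% in WT as deposited, came close together.

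**Figure D5:**
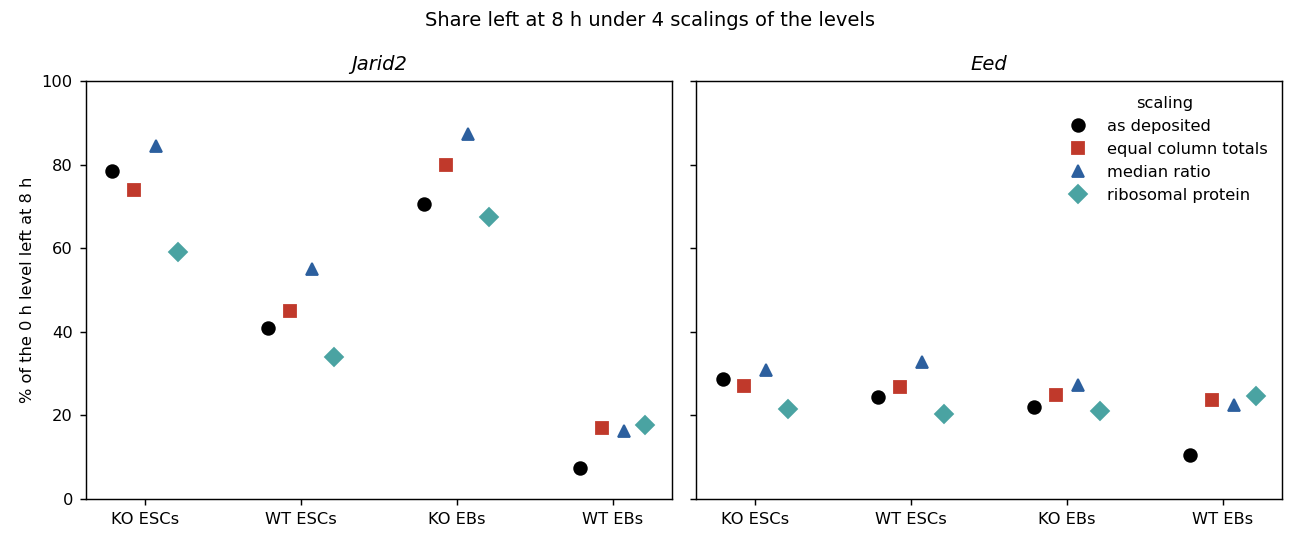
Share of the 0 h level left at 8 h (percent) for Jarid2 (left) and Eed (right) in the 4 conditions, from the levels as deposited and under 3 rescalings of the libraries, 1 point per scaling. Jarid2 is at 67.5 to 87.3% in KO EBs and at 7.49 to 17.7% in WT EBs under the 4 scalings, while Eed is between 10.4 and 32.7% in every condition.

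The 8 genes were not equally alike across the 12 libraries. Pearson's r of the log2 levels was 0.93 between Ezh2 and Eed, 0.89 between Suz12 and Eed and 0.87 between Suz12 and Mtf2, while Ezh1 had r of -0.14 with Jarid2 and 0.12 with Suz12. Ezh1 rests on 2.94 to 18.8 read equivalents per library, and the part of counting error in its low r was not tested. Between genes with more reads, r was 0.86 for Suz12 and Jarid2 and 0.58 for Ezh2 and Jarid2. These values describe 12 libraries that share their time courses and depths. Of all tested entries with a symbol, those most like Ezh2 were Stk24 (r = 0.96), Dync1li1 (0.96) and Nub1 (0.95). Those most like Suz12 were Denr (0.99), Cks2 (0.97) and Plk1 (0.96), and those most like Jarid2 were Prss50 (0.96), Prmt6 (0.96) and Mrpl15 (0.95). In WT EBs at 8 h Prss50 and Prmt6 were listed at 0.

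Further PRC2 components were taken from a list of 8, of which 5 were tested. Among them 0 were called between KO and WT in either cell type by limma. In WT, 3 of the 5 were called lower in EBs than in ESCs, beside the 29.1% of all entries. These were Rbbp7, a histone-binding subunit, at -0.84 ± 0.21 (SE; limma adjusted p 0.00617), and the elongin subunits Eloc at -1.48 ± 0.28 (adjusted p 0.000951) and Elob at -0.87 ± 0.17 (adjusted p 0.00102). Rbbp7 was at 1181, 1039 and 831 in KO EBs and 2199, 2718 and 2077 in KO ESCs at 0, 4 and 8 h, and was called lower in KO EBs as well, at -1.20 ± 0.21 (adjusted p 0.00201), beside 23.2% of all entries. Under the 3 rescalings, in a check added after the data were seen, 0 of the 3 WT calls remained. Rbbp7 was then at -0.16 to 0.07, Elob at -0.19 to 0.03 and Eloc at -0.81 to -0.59 in WT, and the KO call of Rbbp7 held with equal ribosomal protein levels alone (-0.82, adjusted p 0.03). With equal ribosomal protein levels 1 of the 5 was called lower in KO than in WT EBs, beside 4.76% of all entries. With equal column totals 1 was called higher in WT EBs than in WT ESCs, beside 11.1% of all entries. Phf1, the remaining Polycomb-like gene, stayed between 19.6 and 139 in all 12 libraries. Rbbp4 and Epop were not analysed here, and Lcor did not pass the filter.

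Regulators that work beside or against PRC2 were read in the same comparisons. Of 21 tested genes of PRC1, the complex that binds the PRC2 mark and ubiquitinates histone H2A, 4 were higher in KO ESCs: Scmh1 (2.01 ± 0.38, limma adjusted p 0.00299), Phc2 (1.64 ± 0.31, 0.00308), Bcor (1.83 ± 0.41, 0.00755) and Rybp (0.86 ± 0.27, 0.0462). In KO EBs 2 were higher, Phc1 (1.11 ± 0.25, 0.0105) and Pcgf3 (1.19 ± 0.31, 0.0249). In the levels as deposited none was called lower in either cell type. Of all entries 10.9% were called higher in KO ESCs and 7.66% in KO EBs. In ESCs 3 to 4 stayed called higher under the 3 rescalings, where 8.26 to 10.9% of all entries were, Rybp being lost with median-ratio scaling. In EBs Phc1 stayed called with equal column totals and median-ratio scaling, and Pcgf3 under 0 of the 3. With equal ribosomal protein levels 1 of the 21 was called lower in KO EBs, beside 4.76% of all entries. The PRC1 median was 0.73 in ESCs, beside 0.18 over all entries, and 0.48 in EBs, beside 0.09. Between EBs and ESCs 5 of 21 were called lower in each genotype, beside 23.2% of all entries in KO and 29.1% in WT. Among those in WT was the ubiquitin ligase Rnf2 (-2.18 ± 0.33, 0.000158). Under each of the 3 rescalings 0 stayed called in KO, and in WT Rnf2 alone did.

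Of 6 tested genes for H3K27 demethylases and the deubiquitinase complex PR-DUB, 1 was higher in KO EBs, Asxl3 (0.68 ± 0.20, limma adjusted p 0.0462), and 0 were called in ESCs. The share of all entries called higher in KO EBs was 7.66%. In WT 2 were lower in EBs than in ESCs, Asxl3 (-0.79 ± 0.20, 0.00674) and the demethylase gene Kdm6a (-1.70 ± 0.52, 0.0211), beside 29.1% of all entries. The 3 rescalings left 0 of these 3 calls, and the WT difference of Asxl3 was then at 0.12, -0.11 and 0.11. With median-ratio scaling 1 of the 6 was called lower in KO ESCs, beside 5.27% of all entries. The Asxl3 entry had a deposited level of 10905 to 59650.4 over the 12 libraries, and whether reads of another transcript reach it was not tested. Of 11 tested genes of the H3K4 methyltransferases, which place a mark of active promoters, Wdr5, a shared subunit, was lower in KO ESCs (-0.98 ± 0.22, 0.00853) and higher in KO EBs (0.97 ± 0.22, 0.0118), a difference between cell types of 1.96 ± 0.32 (0.0025). Setd1a, a catalytic subunit, was higher in KO EBs (1.20 ± 0.31, 0.0251). Of all entries 3.27% were called lower in KO ESCs and 7.66% higher in KO EBs. Under each of the 3 rescalings 1 of the 11 was called lower in KO EBs, where 2.13 to 4.76% of all entries were. Under the 3 rescalings the ESC difference of Wdr5 and its difference between cell types stayed called, while its EB call was lost with equal ribosomal protein levels (0.54, 0.0821) and Setd1a was called under 0 of them. In WT 5 of these 11 were lower in EBs than in ESCs, beside 29.1% of all entries, among them Wdr5 (-2.39 ± 0.22, 3.54e-06), Rbbp5 (-2.15 ± 0.40, 0.000835) and Dpy30 (-1.10 ± 0.20, 0.000738). Wdr5 stayed called under all 3 rescalings (-1.71 to -1.49), Rbbp5 with equal column totals and median-ratio scaling, and the other 3 genes under 0 of them.

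Developmental genes known as PRC2 targets were mostly below the filter: 10 of 72 listed were tested, and every gene of the Hox clusters was left out by it. In KO EBs 0 of the 10 were called by limma. With equal ribosomal protein levels 1 of the 10 was called lower in KO EBs, beside 4.76% of all entries. Between WT EBs and WT ESCs 1 was higher, the cell cycle inhibitor gene Cdkn2a (1.03 ± 0.26, limma adjusted p 0.00666), beside 3.49% of all entries. With equal column totals, median-ratio scaling and equal ribosomal protein levels, 4, 3 and 4 of the 10 were called higher. Of all entries, 11.1, 8.01 and 9.45% were called higher under these rescalings. H3K27 methylation was not measured in these libraries.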

How the data were processed

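The deposited values are the authors' normalized signal for each RefSeq transcript in 12 libraries. CASAVA 1.8.2, Bowtie and Bowtie2 2.1.0, with the mm10 build, are named in the submitters' processing notes. The counting rule and the scaling are not given in the labels or the file header. Fragmented RNA was selected for poly(A) 3′ ends and copied with its strand kept, per the labels' protocols.

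Groups came from the sample titles. Of 19746 entries, 19535 were matched to symbols through RefSeq genes (GRCm38.p6) and 98 through GENCODE, and 38 identical duplicates were dropped. Low values lie on steps (at least 99.8% of those under 100, within 0.1 of a step). Taking 50 steps as 1 read, which nothing in the labels states, gives the read equivalents behind the exact Poisson intervals of levels and the exact conditional binomial intervals of ratios (95%). These cover counting error only, since PCR copies are not told apart. Whole reads were not recovered, so no count model was run.

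limma 3.58.1 in R 4.3.3 was fitted to log2(level + 8.58), 1 ppm of the mean column total, for entries whose mean level reached 42.9 (5 ppm). This understates changes of genes with low levels. The fit has 8 coefficients, a level and a slope for each of 4 conditions, 4 residual degrees of freedom and a trended prior worth 11.1. Nothing says that libraries came from separate cultures, so p-values measure only the scatter between these libraries. The scripts were tested on simulated data. Sequences are from GENCODE M21 on GRCm38. The 8 genes and the gene lists were chosen with earlier results of these data known. Beyond the 8, up to 4 called genes per list and comparison with the smallest p were eligible for naming, and for Ezh2, Suz12 and Jarid2 the 3 entries with the highest correlation. Alternatives were 3 rescalings, pseudocounts of 0.2 and 5 ppm, no filter or one at 20 ppm, no variance trend, additive time terms, and fits without single libraries or without both EB libraries of 8 h. The KO and WT ESC comparison of the PRC2 target list is not reported here.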

Additional observations from a re-analysis of the deposited data

Results flagged for a closer look

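Jarid2 differed in its KO effect between the cell types by a tested interaction. KO exceeded WT by a log2 of 1.95 in EBs and by 0.07 in ESCs, a difference of 1.87 ± 0.40 (SE; limma adjusted p 0.0176). The endoderm marker sums of the WT EB libraries, and the depth of the WT EB library of 8 h, moved with this result, and their part in it was not tested.

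Wdr5, a shared subunit of the H3K4 methyltransferases, differed in the same way. KO exceeded WT by 0.97 in EBs and was below it at -0.98 in ESCs, a tested difference of 1.96 ± 0.32 (log2, SE; limma adjusted p 0.0025).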

How the results depend on the processing

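No paired analysis was possible because every group has 1 library and all carry the same replicate number, which pairs nothing; libraries matched by hour enter the alternative with additive time terms. Of 600 values of the 8 genes from fits without 1 library, 518 kept direction and side of the threshold, 52 lost a call, 4 gained one and 26 changed sign. Of 477 values under the other alternatives these numbers were 387, 59, 9 and 22. In both sets 0 of the sign changes were calls. Many of these values could not move. Leaving out a library of a condition outside a comparison changes its error and not its value. The filters, the variance trend and, for levels, the additive time terms also leave the values as they were. In such fits only the call could change, so these totals are no measure of how stable the values are. A fit without a condition's 0 or 8 h library takes its level at 4 h alone, and the share left was recomputed under the rescalings alone. Counts of called genes are given with the reported count in parentheses. For KO against WT EBs (1) it was 2 with the filter at 20 ppm and 0 without both EB libraries of 8 h. For EBs against ESCs in WT (5) it was 1 with equal column totals, 3 with median-ratio scaling, 2 with ribosomal protein scaling and 3 without both EB libraries of 8 h, and 3 to 5 without 1 library. Of all entries 4.78, 7.88 and 4.75% were called lower under these 3 rescalings in that order, beside 29.1% as deposited. In KO (2) the count was 0 under the 3 rescalings, without a variance trend, with additive time terms and without both EB libraries of 8 h, and 0 to 2 without 1 library. Of all entries 0.732, 0.551 and 4.12% were called lower in KO under the rescalings in the same order, beside 23.2% as deposited. The interaction (1) gave 0 without a trend, with additive terms and without both EB libraries, and 0 to 1 without 1 library. WT ESC slopes (1) gave 0 with median-ratio scaling or no trend, 4 with ribosomal protein scaling, 2 with the 5 ppm pseudocount, 3 with the filter at 20 ppm and 0 to 1 without 1 library, and KO EB slopes (0) gave 1 with that filter. WT EB slopes (6) gave 2 under each rescaling, 0 without both EB libraries of 8 h and 0 to 7 without 1 library. The EB slope difference (1) gave 0 under each rescaling, with the 0.2 ppm pseudocount, no filter, no trend or without both EB libraries, and 0 to 1 without 1 library. The summed share left moved to 39.4% in KO ESCs at 8 h with ribosomal protein scaling (52.4% as deposited). In WT ESCs it moved to 78.5% with median-ratio and 51.9% with ribosomal protein scaling at 4 h (64.9%) and to 47.6% with median-ratio scaling at 8 h (35.6%). In KO EBs at 8 h it was 61.5% with median-ratio scaling (49.7%). In WT EBs it was 58.0 and 61.3% with equal totals and median-ratio scaling at 4 h (42.3%), and 35.8, 34.1 and 37.3% under the 3 rescalings at 8 h (15.8%).

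The sign changed for these uncalled values. Between KO and WT ESCs Suz12, Jarid2 and Mtf2 were at -0.10, -0.10 and -0.068 with median-ratio scaling. Between KO and WT EBs Eed was at -0.17 with ribosomal protein scaling, and Ezh2 at 0.12 and Phf19 at 0.13 without both EB libraries of 8 h. Between WT EBs and ESCs Aebp2 was at 0.79, 0.57 and 0.78 under the 3 rescalings and at 0.035 without both EB libraries, and Ezh1 and Phf19 were at -0.058 and -0.21 without them. Between KO EBs and ESCs Suz12 was at 0.26 and 0.25 with equal totals and median-ratio scaling, and Phf19 at 0.31, 0.30 and 0.044 under the 3 rescalings and 0.11 without both EB libraries. The Ezh1 slope was -0.011 in WT ESCs with ribosomal protein scaling, and 0.051, 0.042 and 0.059 in WT EBs under the 3 rescalings. Without 1 library, ranges that crossed 0 were, between KO and WT ESCs, -0.39 to 0.31 for Jarid2, -0.37 to 0.17 for Phf19, -0.063 to 0.36 for Suz12, -0.020 to 0.35 for Mtf2 and -0.97 to 0.90 for Ezh1, and, between KO and WT EBs, -0.77 to 0.31 for Ezh2. Between WT EBs and ESCs they were -0.58 to 1.29 for Ezh1, -0.21 to 0.22 for Phf19 and -0.13 to 0.035 for Aebp2. Between KO EBs and ESCs they were -0.65 to 0.11 for Phf19, -0.088 to 0.22 for Aebp2 and -0.036 to 0.66 for Jarid2, and for the Ezh1 slope in WT ESCs -0.45 to 0.49. The cause of these changes was not tested.

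Over all 12704 entries the counts of calls had wide ranges over the alternatives: 717 to 2016 (1797 reported) between KO and WT ESCs, 126 to 1388 (1171) between KO and WT EBs, 1662 to 4898 (4145) between WT EBs and ESCs, 111 to 3459 (3066) between KO EBs and ESCs and 42 to 526 (363) for the interaction. Slopes gave 0 to 37 (4) in KO ESCs, 37 to 992 (700) in WT ESCs, 0 to 29 (0) in KO EBs and 9 to 3794 (3410) in WT EBs, and slope differences 0 to 59 (5) in ESCs and 0 to 701 (151) in EBs. Depth limits Phf19 and Ezh1 most, at 1.84 to 14.4 and 2.94 to 18.8 read equivalents per library.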
